A study of Rattus norvegicus with 13 samples.

Results

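The genes described here fold newly made secretory and membrane proteins in the endoplasmic reticulum (ER) or belong to the unfolded protein response, the signalling system that adjusts folding capacity to load. They were taken from a list of 36 rat gene symbols, each matched to the array through the RefSeq accession printed beside its probes. Of the 36 genes, 30 were matched to a probe, and each of these 30 gave a signal well above background on all 13 arrays, out of 25361 genes measured. The other 6 (Manf, Edem1, Ern1, Xbp1, Trib3 and Chac1) were not matched to a probe and are not analysed here. Membership was set by gene symbol and not by a cut on a measured value, but the list was chosen with earlier results of these data known.

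In a resting cell the chaperone Hspa5 (BiP) holds the 3 ER stress sensors Ern1 (Ire1), Eif2ak3 (Perk) and Atf6 inactive at the ER membrane. When unfolded protein accumulates, Ern1 splices the mRNA of the transcription factor Xbp1, Eif2ak3 slows translation while favouring that of Atf4, and Atf6 is cut into a soluble transcription factor. These factors raise the transcription of chaperones, oxidoreductases and components of ER-associated degradation, the route that returns misfolded proteins to the cytosol. The mammary epithelium is a secretory tissue that expands this machinery when it makes milk.

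The rats were female and of the Sprague-Dawley stock, and their radiation-induced mammary carcinomas, from exposure before or after puberty, were compared with normal mammary tissue. The IR-3W group (n = 4) was irradiated at 3 weeks of age and the IR-7W group (n = 6) at 7 weeks, each with a whole-body dose of 2 Gy from caesium gamma rays, delivered at 0.6 Gy per minute. From 9 weeks on both received AIN-76A diet containing corn oil at 23.5%, and palpable tumours were taken at 50 weeks. The normal group (n = 3) was mammary tissue of non-irradiated rats, which the labels call age-matched in one field and tissue of rats 7 weeks old in another, so neither its age nor its diet relative to the carcinomas is settled. Whether each array stands for an animal of its own is not stated, so that the p-values measure only the spread between these samples.

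A level is the log2 of the deposited processed signal minus the 75th percentile of that array, so it has no unit beyond its own probe and is compared only between arrays. A gene was called higher or lower where limma's adjusted p (Benjamini-Hochberg over all genes tested) was under 0.05. Normal arrays were dimmer than carcinoma arrays (75th percentile of 82.3 to 179 signal units, against 276 to 1049 in IR-3W and 615 to 1242 in IR-7W). The 3 normal arrays shared a slide that held no carcinoma array. The file headers also gave them a scanner name that no carcinoma array had. Group therefore cannot be told apart from slide or scanner in either comparison with normal tissue. The slope of signal on spiked-in RNA amount that the scanner software gives, both on a log scale, was 0.759 to 0.845 on the normal arrays, 0.924 to 0.937 on the IR-3W arrays and 0.954 to 0.987 on the IR-7W arrays. Array IR-3W 3 stood apart from its group, with the lowest signal of the carcinoma arrays and a median correlation of 0.901 with the other IR-3W arrays across genes; without it the IR-3W difference from normal tissue changed sign for 2 of the 30 genes (Sec61b and Ddit3) and moved by over 1.5 times for 10 others, and the values without it stand beside these genes. The tissue was bulk, so fewer cells of a type and less RNA per cell cannot be told apart. The luminal epithelial markers Epcam and Krt18 were well above background on all arrays, which does not measure the share of epithelium. Of 14 luminal markers, 1 was called higher in IR-3W and 2 in IR-7W than in normal tissue, and 0 lower. Spint2, called in both, had a mean level of -1.77 in normal tissue, 2.06 in IR-3W and 2.19 in IR-7W. The list did not move with it in IR-3W, where 7 markers were positive and 7 negative (median difference of 0.02). In IR-7W 12 were positive and 2 negative (median of 0.58). Between the carcinoma groups 13 of the 14 were lower in IR-3W (median of -0.51), 1 of them called (Cldn3).

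The DNA through which several of these genes answer ER stress is shown first. The ER stress response element (ERSE), CCAAT followed after any 9 bases by CCACG, joins a binding site for the factor NF-Y to one for Atf6 and Xbp1. ERSE-II, ATTGG followed after any 1 base by CCACG, is its compact form. Both were searched on both strands in the 250 bases before the start of transcription in RefSeq promoters of assembly GRCr8, which list 28 of the 36 genes and 24 of the 30 that were measured. ERSE stood in 7 of the 28 (25%), against 21 of 27457 promoters in all (0.0765%), and ERSE-II in 2 of the 28 (7.14%), against 12 of 27457 (0.0437%). Among measured genes 8 held either element. A stretch around the copy nearest to the start of transcription is printed for each of the 8, on the strand of the gene, because they are the measured genes whose promoters carry the response's own letters; capitals mark the fixed letters of the element or of its reverse complement.
Hspa5, chr3:38452958-38453006, plus strand: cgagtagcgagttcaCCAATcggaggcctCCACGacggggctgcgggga
Hsp90b1, chr7:23012332-23012380, minus strand: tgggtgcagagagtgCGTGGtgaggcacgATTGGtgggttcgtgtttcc
Hyou1, chr8:53602779-53602819, plus strand: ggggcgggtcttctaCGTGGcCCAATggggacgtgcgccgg
Dnajc3, chr15:102432519-102432567, plus strand: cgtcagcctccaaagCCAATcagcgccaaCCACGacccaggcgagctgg
Creld2, chr7:121789224-121789272, plus strand: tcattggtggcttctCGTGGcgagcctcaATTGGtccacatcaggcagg
Calr, chr19:40213120-40213168, plus strand: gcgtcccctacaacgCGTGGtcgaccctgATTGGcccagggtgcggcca
Canx, chr10:35158054-35158102, minus strand: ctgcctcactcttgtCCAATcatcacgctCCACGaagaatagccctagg
Herpud1, chr19:10614806-10614846, minus strand: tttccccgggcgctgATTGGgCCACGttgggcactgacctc

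Hyou1 and Herpud1 carry ERSE-II and the other 6 carry ERSE, in either orientation. The element of Hspa5 lies closest to its start, 25 to 43 bases before it, and that of Calr farthest, 214 to 232 bases before it. Hsp90b1 holds a further ERSE and Hyou1 a further ERSE-II. Of the other motifs searched, the unfolded protein response element TGACGTGG, whose reverse complement shares the letters CCACG with ERSE, stood in 1 of the 28 promoters (3.57%), that of Hyou1, against 0.55% of all promoters. The Atf4 composite element TGATGNAA stood in 3 of the 28, against 3.27% of all promoters, namely Herpud1 and the unmeasured Trib3 and Chac1. A match describes the letters in this window and is not evidence that a factor binds there.

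In IR-3W carcinomas 2 of the 30 genes were lower than in normal tissue, the lectin chaperone Calr and the degradation adaptor Sel1l, and 0 were higher by limma; 6 further genes had an unadjusted p under 0.05. Among all genes tested 5.35% were called lower, 9.24% higher and 14.6% either way, so 2 of 30 (6.67%) is near the background for lower calls. At an unadjusted p under 0.05 the shares were 26.7% of the 30 genes and 29.6% of all genes. The median difference was -0.26 over the 30 genes and -0.01 over all genes, with 20 of the 30 negative. Relative to all genes this median was -0.26, but 0.09 with normexp background correction (limma's model of a spot as signal plus local background) and 0.12 with no filter on dim probes. With no filter the median of the 30 genes itself stayed at -0.26, while that of all genes fell to -0.39. With a filter on all 13 arrays the relative median was -0.12. Its direction against all genes thus turned with normexp and with the set of genes compared.

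In IR-7W carcinomas 5 of the 30 genes were lower than in normal tissue, namely Calr, Sel1l, the ubiquitin ligase Syvn1, the disulfide isomerase P4hb and the prolyl isomerase Ppib, and 0 were higher; 5 further genes had an unadjusted p under 0.05. Among all genes tested 8.85% were called lower, 11.9% higher and 20.8% either way, against 16.7% of the 30 genes called lower. At an unadjusted p under 0.05 the shares were 33.3% and 34.6%. The median difference was -0.47, against -0.02 over all genes, and 22 of the 30 were negative. Relative to all genes it was -0.44, and with normexp it turned to 0.37. Both comparisons use the same 3 normal arrays, so the calls of Calr and Sel1l in each are not independent of one another.

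Between the carcinoma groups 0 of the 30 genes were called by limma, where 0.737% of all genes were, and 6 (20%) had an unadjusted p under 0.05, against 12.3% of all genes. The median difference, IR-3W minus IR-7W, was 0.19 over the 30 genes and -0.00 over all genes, with 19 positive and 11 negative; relative to all genes it was 0.19, and -0.39 with normexp. Without IR-3W 3 the median over the 30 genes was 0.12, and the difference of 20 of them changed sign or moved by over 1.5 times. Without IR-3W 2 that median was 0.025, and -0.009 relative to all genes, so its positive value rested largely on this array. None of the 30 was called under any of the 14 other settings or with any array left out.

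**Figure D1:**
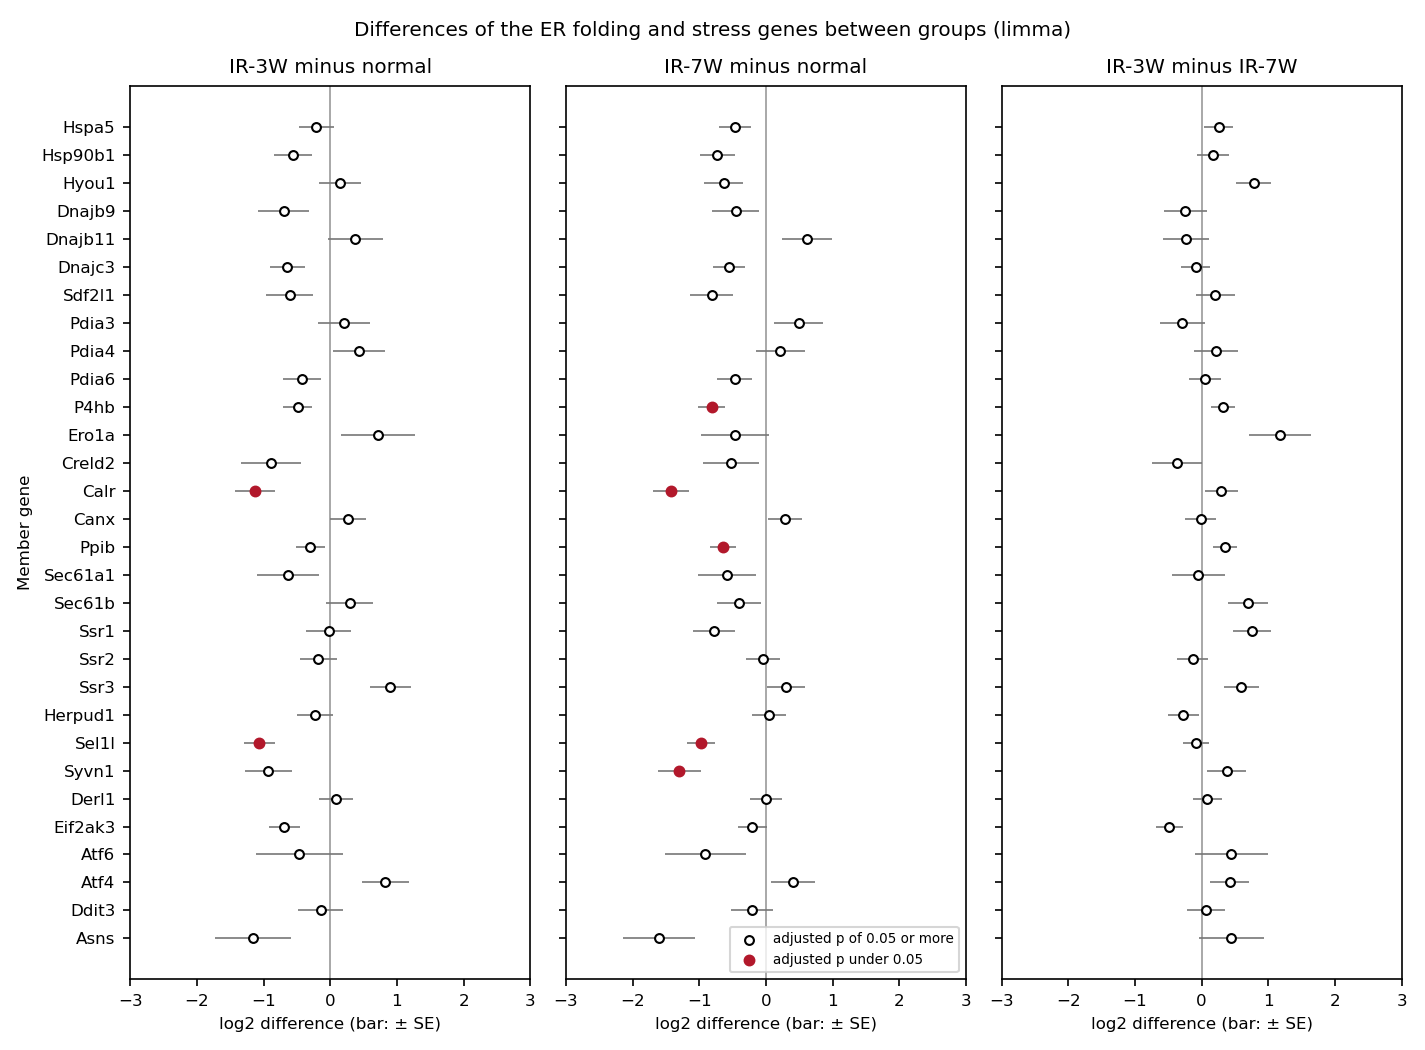
Log2 difference (horizontal axis, bar ± SE from limma) of each of the 30 measured genes (vertical axis) in the 3 comparisons; filled red points have an adjusted p under 0.05. The filled points all lie left of 0, with 2 in IR-3W minus normal, 5 in IR-7W minus normal and 0 between the carcinoma groups.

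The lectin chaperones hold glycoproteins in the ER until they fold. The level of Calr, the soluble lectin chaperone calreticulin, was 4.86, 4.59 and 3.86 on the 3 normal arrays. It was 2.92, 3.71, 3.35 and 3.27 on the 4 IR-3W arrays, and on the 6 IR-7W arrays it ran from 2.47 through a median of 3.11 to 3.29. Every carcinoma array lay below every normal array. The difference was -1.13 ± 0.29 (SE) in IR-3W (limma adjusted p = 0.0222) and -1.42 ± 0.27 in IR-7W (adjusted p = 0.00306), folds of 2.18 and 2.67 lower. In IR-3W this call did not hold without normal 1 (-0.92, limma adjusted p = 0.102), without normal 2 (-1.05, adjusted p = 0.0898), with IR-3W 1 left out (adjusted p = 0.0535) and in a fit of only the compared groups (adjusted p = 0.0987). In IR-7W, Calr was called under all 12 other settings and with each array left out. Canx (calnexin), the membrane-bound relative of Calr, also carries ERSE, and its levels overlapped between groups. Its differences were 0.27 (95% interval -0.32 to 0.86) and 0.28 (-0.26 to 0.83), while another Canx probe gave -0.81 and -0.19, so the sign for Canx depended on the probe.

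Ppib (cyclophilin B) is the ER prolyl isomerase, best known for its part in collagen folding. Its level was 6.25, 6.54 and 6.42 on the normal arrays. It was 5.81, 6.16, 6.33 and 6.11 on the IR-3W arrays, and ran from 5.49 through a median of 5.75 to 5.98 on the IR-7W arrays. IR-7W lay wholly below normal tissue, whereas IR-3W 3 lay within the normal range. The IR-7W difference was -0.64 ± 0.20 (limma adjusted p = 0.0364), a fold of 1.56 lower, and that in IR-3W was -0.30 ± 0.21 (adjusted p = 0.383). The IR-7W call of Ppib was fragile: it was lost without any single normal array (limma adjusted p = 0.0645, 0.144 and 0.0903 without normal 1, 2 and 3) and without IR-7W 1, 3, 4 or 6 (0.069, 0.0734, 0.0637 and 0.0562). Over those runs the difference stayed between -0.72 and -0.57. With normexp background correction it was -0.29 (adjusted p = 0.3), and with the percentile taken over probes detected on all arrays -0.49 (adjusted p = 0.0836).

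**Figure D2:**
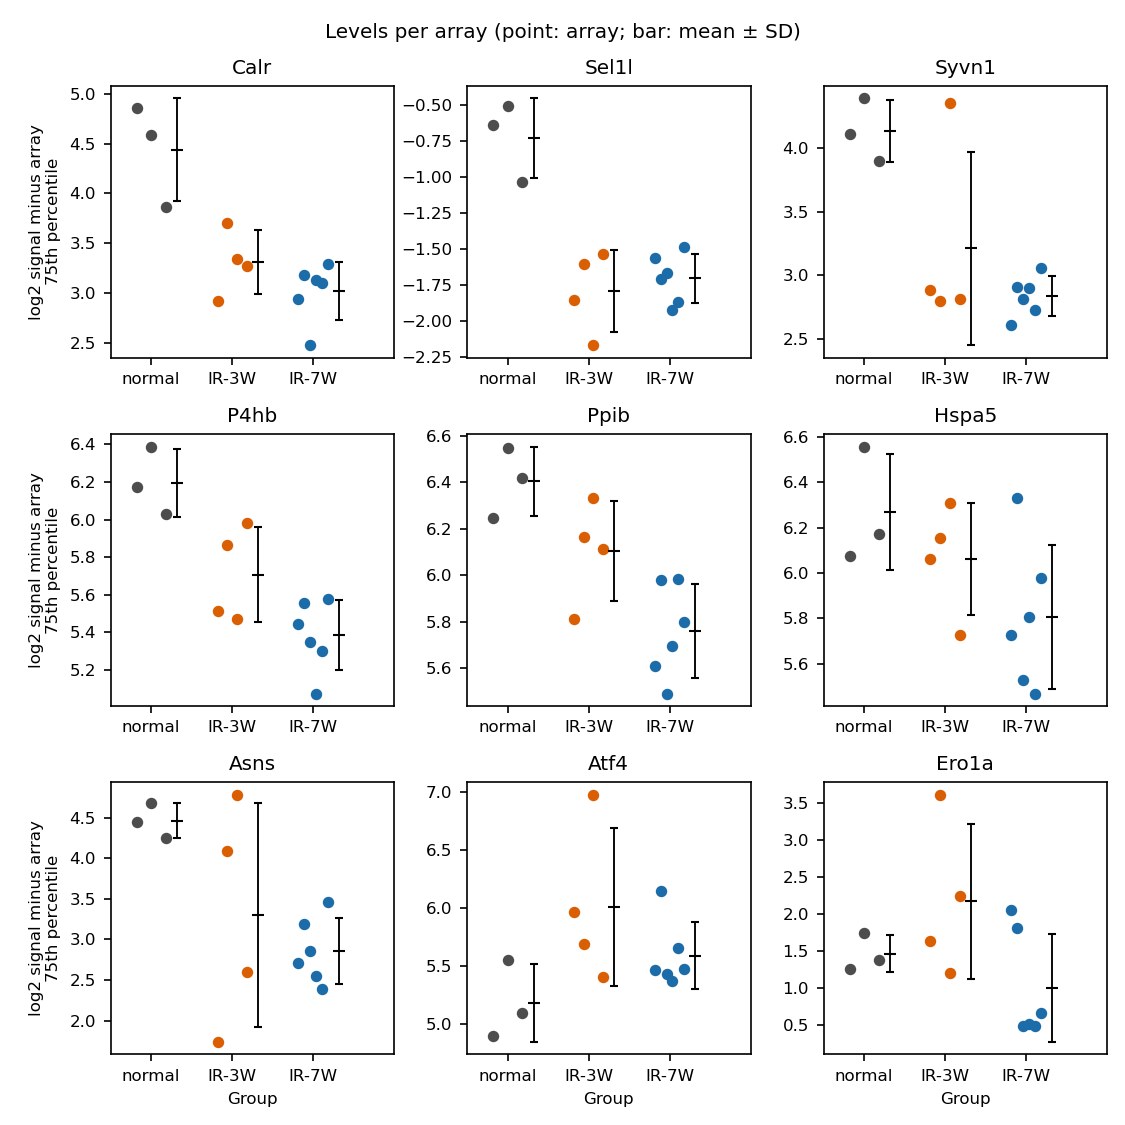
Levels (vertical axes, log2 signal minus the 75th percentile of the array; the axes differ in range) of 9 genes by group, a point per array and a bar for the group mean ± SD (normal n = 3, IR-3W n = 4, IR-7W n = 6). Every carcinoma array lies below the normal arrays for Calr, Sel1l and P4hb, while a single IR-3W array (IR-3W 3) reaches the normal levels of Syvn1.

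ER-associated degradation passes misfolded proteins through a membrane complex in which Sel1l is the adaptor and Syvn1 (Hrd1) the ubiquitin ligase. Sel1l had levels of -0.64, -0.51 and -1.04 on the normal arrays. Its levels were -1.86, -1.61, -2.17 and -1.53 on the IR-3W arrays, and on the IR-7W arrays they ran from -1.93 through a median of -1.69 to -1.49. The carcinoma and normal arrays did not overlap. The differences were -1.06 ± 0.23 in IR-3W (limma adjusted p = 0.00845) and -0.98 ± 0.21 in IR-7W (adjusted p = 0.00685), folds of 2.09 and 1.97 lower, and both calls held with each array left out. The IR-3W call was lost with normexp (-0.68, limma adjusted p = 0.0951) and in a fit of only the compared groups (adjusted p = 0.0779).

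Syvn1 had levels of 4.11, 4.39 and 3.90 on the normal arrays. On the IR-3W arrays the levels were 2.88, 2.80, 4.35 and 2.81, and on the IR-7W arrays they ran from 2.61 through a median of 2.85 to 3.06. All 6 IR-7W arrays and 3 of the 4 IR-3W arrays lay below the normal arrays, and IR-3W 3 lay among them. The IR-7W difference was -1.30 ± 0.32 (limma adjusted p = 0.0128), 2.46-fold lower, and was not called without normal 2 (-1.17, adjusted p = 0.0672). The IR-3W difference was -0.93 ± 0.35 (adjusted p = 0.0923) with all arrays and -1.31 (adjusted p = 0.00128) without IR-3W 3. Another Syvn1 probe differed in the same direction, by -0.56 and -0.86.

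Of the other measured members of the route, Derl1, a channel component of retrotranslocation, differed by 0.09 (95% interval -0.47 to 0.65) in IR-3W and by 0.00 (-0.51 to 0.52) in IR-7W. Herpud1, which recruits the degradation complex and carries ERSE-II, differed by -0.23 (-0.82 to 0.36) and 0.04 (-0.50 to 0.59), and in IR-3W by -0.06 without IR-3W 3. Another Herpud1 probe gave -0.62 and -0.12. On the probes first given, the arrays of both genes overlapped between all groups, and all 4 intervals lay within 1 log2 unit of 0.

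Disulfide bonds are made and rearranged by the protein disulfide isomerases, which Ero1a reoxidises. P4hb, the main disulfide isomerase and the beta subunit of collagen prolyl 4-hydroxylase, had levels of 6.17, 6.39 and 6.03 on the normal arrays. Its levels were 5.51, 5.86, 5.47 and 5.98 on the IR-3W arrays, and 5.08 to 5.58 with a median of 5.40 on the IR-7W arrays. All 10 carcinoma arrays lay below the normal arrays, IR-3W 4 only narrowly. The difference was called in IR-7W (-0.81 ± 0.20, limma adjusted p = 0.0141, 1.75-fold lower) and not in IR-3W (-0.49 ± 0.22, adjusted p = 0.158). In IR-7W it was no longer called with normal 2 left out (-0.71, adjusted p = 0.0776) or with normexp background correction (-0.54, adjusted p = 0.055).

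The other isomerases were not called. Pdia6 differed by -0.42 and -0.47, Pdia4 by 0.43 and 0.22 and Pdia3, the partner of the lectin chaperones, by 0.20 and 0.49, in IR-3W and IR-7W respectively. Without IR-3W 3 the IR-3W difference was -0.19 for Pdia6 and 0.62 for Pdia3. Pdia6 was below normal tissue on every IR-7W array, while Pdia3 and Pdia4 overlapped with it. Creld2, an ER factor with an ERSE in its promoter, differed by -0.89 and -0.52 with limma adjusted p = 0.205 and 0.404; the IR-3W difference was -1.29 (adjusted p = 0.0432) without IR-3W 2 and -0.51 (adjusted p = 0.38) without IR-3W 3.

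Ero1a had the widest spread of the 30 genes among IR-7W arrays (SD of 0.73, against a median SD of 0.28 over the 30 and of 0.45 over all genes in that group). Its level was 1.26, 1.74 and 1.38 on the normal arrays. It was 1.63, 3.62, 1.20 and 2.24 on the IR-3W arrays, and 2.05, 1.82, 0.48, 0.51, 0.48 and 0.66 on IR-7W 1 to 6. IR-3W 2 stood highest, and the IR-7W arrays divided into a pair above the normal arrays and 4 below them. The difference between the carcinoma groups was 1.17 ± 0.47 (limma adjusted p = 0.326), and the differences from normal tissue were 0.71 (95% interval -0.49 to 1.91) and -0.46 (-1.57 to 0.65).

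Ero1a is also known to be induced by low oxygen. A list of 12 genes known to be induced by hypoxia, chosen after the spread of Ero1a was seen and given as values only, had its highest median level (each gene minus its own mean over arrays) on IR-3W 2, at 1.76, followed by 0.84 on IR-3W 4, 0.79 on IR-7W 1 and 0.59 on IR-7W 2. The medians were 0.41 on IR-3W 1 and -0.44 on IR-3W 3, from -0.82 to -0.25 on IR-7W 3 to 6, and from -0.64 to -0.45 on the normal arrays. Its relation to the level of Ero1a was not tested.

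The Hsp70 and Hsp90 chaperones of the ER bind unfolded chains directly, and their cochaperones tune that cycle. None of these 7 genes was called in any comparison, with medians of -0.56 in IR-3W and -0.55 in IR-7W; 1 and 3 of them had an unadjusted p under 0.05. Hspa5, the textbook readout of ER stress, had levels of 6.07, 6.56 and 6.17 on the normal arrays. They were 6.06, 6.16, 6.31 and 5.73 on the IR-3W arrays, and ran from 5.47 through a median of 5.77 to 6.33 on the IR-7W arrays. The 3 groups overlapped. Its differences were -0.21 ± 0.26 (95% interval -0.76 to 0.35, adjusted p = 0.634) and -0.46 ± 0.24 (-0.97 to 0.05, adjusted p = 0.188). Hspa5 was called lower in IR-7W with array weights (-0.60, limma adjusted p = 0.0295), and in both comparisons after division by the spike-in slope.

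Hsp90b1 (Grp94), the ER Hsp90, differed by -0.56 and by -0.73 ± 0.26 (limma adjusted p = 0.0683 in IR-7W), and by -0.84 (adjusted p = 0.0368) in IR-7W without IR-7W 2. Its other probe gave -0.46 and -0.38. Sdf2l1, a cofactor of the Hspa5 cycle, differed by -0.61 and -0.81 (adjusted p = 0.274 and 0.094). Dnajc3 (p58IPK), an Hspa5 cochaperone, differed by -0.64 and -0.55 (adjusted p = 0.121 and 0.126), and in IR-3W by -0.82 (adjusted p = 0.0492) without IR-3W 2. In IR-7W all 3 were called lower, with all arrays in, under array weights (adjusted p = 0.00442, 0.0129 and 0.038 in the order given) and after division by the spike-in slope, and Hsp90b1 also with slide as a random block (adjusted p = 0.0455).

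Hyou1 (Grp170), the nucleotide exchange factor of Hspa5, had a larger difference between the carcinoma groups, 0.78 ± 0.27 (limma adjusted p = 0.241), than between IR-3W and normal tissue (0.15, and 0.08 without IR-3W 3). Another Hyou1 probe gave 0.13 between the carcinoma groups and 0.22, in place of -0.63, for IR-7W against normal tissue. On the probe first given, Hyou1 was called lower in IR-7W with array weights (-0.73, limma adjusted p = 0.0296) and after division by the spike-in slope. Dnajb11 differed by 0.38 (0.59 without IR-3W 3) and 0.61, with overlapping arrays. Dnajb9, an Hspa5 cochaperone that also restrains Ern1, differed by -0.70 and -0.46, and its other probe by 0.17 and 0.21, so its sign too depended on the probe.

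Nascent chains enter the ER through the Sec61 channel, helped by the signal sequence receptor complex (Ssr1 to Ssr3 among the genes here). None of the 5 measured genes was called. Ssr3 was higher on all 4 IR-3W arrays (2.86, 3.01, 3.86 and 3.18) than on the normal arrays (1.80, 2.44 and 2.74), the only gene of the 30 with every IR-3W array above normal tissue, where 13.4% of all genes lay above. Its difference was 0.90 ± 0.31 (limma adjusted p = 0.0677), and it was called under 6 of the 12 other settings, but another Ssr3 probe gave -0.85 in IR-3W and -0.93 in IR-7W, the opposite sign. Ssr1 differed by -0.78 ± 0.32 in IR-7W (adjusted p = 0.0975) with every IR-7W array below normal tissue. In IR-3W, Ssr1 differed by -0.02 and Ssr2 by -0.18, and by -0.29 and -0.05 without IR-3W 3. Sec61b was higher on every IR-3W array than on the 5 IR-7W arrays that gave a value (0.69 ± 0.30, adjusted p = 0.384; 0.37 without IR-3W 3). Against normal tissue it differed in IR-3W by 0.29, and by -0.03 without IR-3W 3. That made it the only gene of the 30 above IR-7W on every IR-3W array, where 1.57% of all genes were.

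The stress sensors and their transcription factors also stayed below the threshold. The level of Atf4 was 4.90, 5.55 and 5.10 on the normal arrays. It was 5.96, 5.69, 6.98 and 5.41 on the IR-3W arrays and ran from 5.37 through a median of 5.47 to 6.15 on the IR-7W arrays. The groups overlapped, since normal 2 lay above IR-3W 4 and several IR-7W arrays. The differences were 0.83 ± 0.35 (limma adjusted p = 0.133; 0.50 without IR-3W 3) and 0.41 ± 0.32 (adjusted p = 0.405); in IR-7W it was 0.97 (adjusted p = 0.0212) with normexp and -0.69 (not called) when divided by the spike-in slope.

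Eif2ak3 differed by -0.69 ± 0.24 in IR-3W (limma adjusted p = 0.0707) and by -0.20 ± 0.22 in IR-7W. Without normal 3 the IR-3W difference was -0.95 (adjusted p = 0.0191). Its levels, -1.24, -1.02, -0.92 and -1.22 on the IR-3W arrays, lay below all 6 IR-7W arrays (-0.74 to -0.49), the only such gene of the 30, where 1.34% of all genes lay below; the difference was -0.48 ± 0.20 (limma adjusted p = 0.343). Atf6 had the widest spread of the 30 genes in IR-3W (SD of 1.54, from -1.64 on IR-3W 2 to 2.10 on IR-3W 3), with differences of -0.46 and -0.91 and intervals from -1.87 to 0.95 and from -2.21 to 0.40; without IR-3W 3 the IR-3W difference was -1.11. Ddit3 (Chop), the factor tied to prolonged stress, differed by -0.14 (95% interval -0.87 to 0.58; 0.00 without IR-3W 3) and -0.21 (-0.88 to 0.46), with overlapping arrays in all groups.

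Asns, the asparagine synthetase that Atf4 induces, was the only measured gene of the 3 grouped here as targets of that arm, with Trib3 and Chac1 unmatched. Ddit3 and Herpud1, the latter with the Atf4 composite element in its promoter, were grouped under other functions. Its level was 4.45, 4.68 and 4.25 on the normal arrays. It was 1.74, 4.09, 4.78 and 2.60 on the IR-3W arrays, and ran from 2.38 through a median of 2.78 to 3.46 on the IR-7W arrays. All IR-7W arrays lay below normal tissue, while IR-3W 3 lay above it and IR-3W 1 and 4 far below. The IR-7W difference was -1.60 ± 0.53, the largest of the 30 genes in size, with a limma adjusted p just past the threshold (0.050014), and it was called under 6 of the 12 other settings. The IR-3W difference was -1.16 ± 0.58 (adjusted p = 0.201); with IR-3W 3 left out it was -1.65 (adjusted p = 0.0363).

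**Figure D3:**
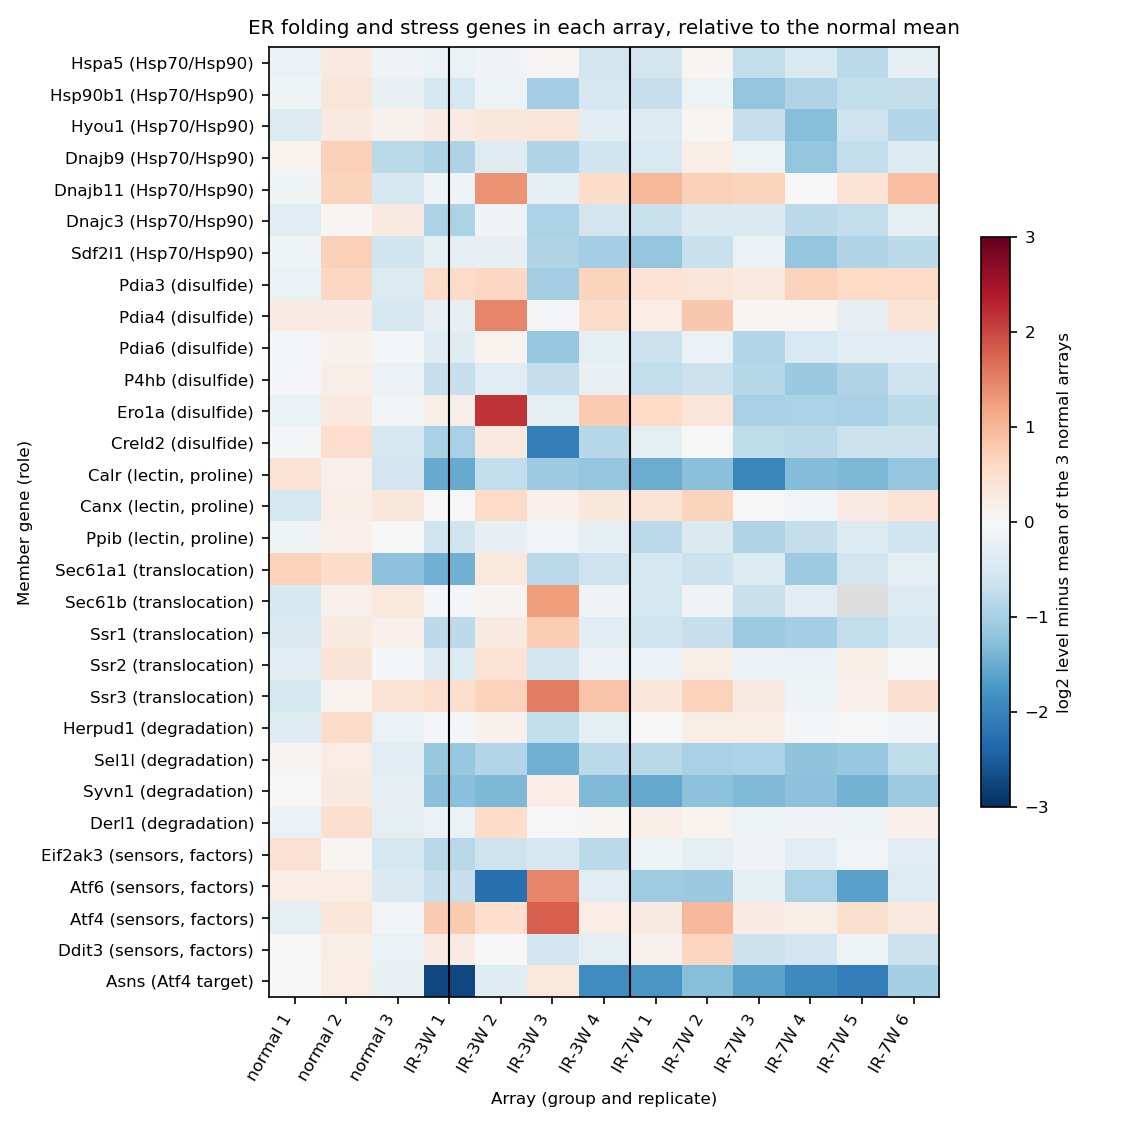
Level of each of the 30 genes (rows, grouped by role) on each of the 13 arrays (columns) minus the mean of the 3 normal arrays, in log2 units (colour scale from -3 to 3; grey, no value). Calr, Sel1l and P4hb are below the normal mean on all 10 carcinoma arrays, and IR-3W 3 departs from the other IR-3W arrays for Syvn1, Pdia3, Sec61b and Asns.

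Counted by arrays without a test, 3 of the 30 genes had every IR-3W array below every normal array (11.4% of all genes did) and 8 had every IR-7W array below (14% of all genes). The 8 were the 5 called genes with Pdia6, Ssr1 and Asns. By array, between 8 and 18 of the measured genes lay below the whole normal range and between 1 and 10 above it. IR-3W 2 had the fewest below (8) and the most above (10), and IR-7W 4 had 18 below and 1 above. Within groups the extremes also clustered by array: normal 2 was the highest normal array for 23 of the 30 genes, and IR-7W 2 the highest of its group for 13. These counts per array were not made over all genes. They have no background share, so whether they are particular to the 30 genes was not tested.

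The 8 measured genes with ERSE or ERSE-II in the promoter held 1 lower call, Calr, in each comparison with normal tissue, with medians of -0.39 in IR-3W and -0.54 in IR-7W. The 16 with a listed promoter and no match held 1 and 4 lower calls, with medians of -0.24 and -0.43. Among all genes 5.35% were called lower in IR-3W and 8.85% in IR-7W, and counts this small do not set the sets apart. Both sets ran from negative to positive differences and overlapped.

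Genes of the same pathways that are not on the list of 36 held calls in both directions. Of 126 measured, 6 (4.76%) were called higher and 8 (6.35%) lower in IR-3W, where 9.24% and 5.35% of all genes were. There 76 were negative, with a median of -0.20. In IR-7W 7 (5.56%) were called higher and 14 (11.1%) lower, where 11.9% and 8.85% of all genes were. There 89 were negative, with a median of -0.31. Between the carcinoma groups 1 (0.794%) was called, against 0.737% of all genes. The counts by function follow, with limma differences in log2 units, and stand beside these same shares of all genes.

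Among 28 other genes of the Atf4 arm, 2 were higher and 1 lower in IR-3W and 3 higher and 3 lower in IR-7W. Psph, the last enzyme of serine synthesis, rose by 2.11 ± 0.35 (limma adjusted p = 0.00155) and 2.59 ± 0.32 (adjusted p = 0.000144), and Cebpg, a dimer partner of Atf4, by 2.51 ± 0.36 (adjusted p = 0.00055) and 2.15 ± 0.33 (adjusted p = 0.000676). Every carcinoma array was above every normal array for both, and both calls held under all 12 other settings and with each array left out. Pck2, the mitochondrial phosphoenolpyruvate carboxykinase, rose by 1.41 ± 0.31 in IR-7W (adjusted p = 0.00744). Cth, the cystathionine gamma-lyase that makes cysteine, fell by 2.43 ± 0.65 in IR-3W (adjusted p = 0.0257) and by 2.64 ± 0.60 in IR-7W (adjusted p = 0.00866). Without normal 1 or normal 2 neither call of Cth held (adjusted p of 0.102 and 0.121 in IR-3W, 0.0506 and 0.056 in IR-7W), and the IR-3W call was also lost without IR-3W 1 (adjusted p = 0.0611) and with normexp (adjusted p = 0.0586).

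Among 24 other genes of translocation, signal peptide cleavage and N-glycosylation, 0 were higher and 2 and 5 were lower, with medians of -0.44 and -0.56. Dad1 and Ostc, subunits of the oligosaccharyltransferase, fell in IR-7W by 1.22 ± 0.23 (limma adjusted p = 0.00284) and by 0.86 ± 0.19 (adjusted p = 0.00745), and Magt1, another subunit, fell in IR-3W by 1.17 ± 0.24 (adjusted p = 0.00649). These 3 calls held with each array left out. With the replicate number as a block all 3 were lost (limma adjusted p = 0.0567, 0.0681 and 0.0562 in the order given). That of Magt1 was also lost in a fit of only the compared groups (adjusted p = 0.0715) and that of Ostc with normexp (adjusted p = 0.057). Dad1 was called lower in IR-3W as well (-0.91, adjusted p = 0.0276), a call lost in 5 of 7 runs with an array left out.

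Among 25 other ER chaperones and foldases, 2 were higher and 1 lower in IR-3W and 0 were called in IR-7W, where 6 had an unadjusted p under 0.05. Fkbp7, an ER prolyl isomerase, rose in IR-3W by 1.62 ± 0.29 (limma adjusted p = 0.00259), held with each array left out, and was the 1 gene called between the carcinoma groups (1.26 ± 0.24, adjusted p = 0.0399). That last call was lost without IR-3W 2 or 4 or without IR-7W 1, 2, 3, 5 or 6 (7 of 10 runs, differences of 1.14 to 1.30, highest adjusted p = 0.146, without IR-3W 4) and on slide 2 alone (1.29, not called). The fibroblast markers moved with it: 8 of 12 were higher in IR-3W than in IR-7W, and their median per array was 0.63 to 1.97 in IR-3W and -1.17 to 0.20 in IR-7W. Its part in the Fkbp7 result was not tested.

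Among 27 genes of ER to Golgi transport, 2 were higher and 2 lower in IR-3W and 2 higher and 4 lower in IR-7W. Tmed10, a cargo receptor of these vesicles, rose in IR-7W by 1.16 ± 0.23 (limma adjusted p = 0.00367), and the call held with each array left out. Among 15 other degradation genes, 2 were lower in IR-3W, and 2 were higher and 2 lower in IR-7W. None of 7 genes for other ER-bound transcription factors and their proteases was called, with 0 at an unadjusted p under 0.05 in either comparison with normal tissue. Of all these calls outside the 36 genes, 4 of 14 in IR-3W and 6 of 16 in IR-7W held with each array left out, counting up to 4 genes per function.

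Markers of other cells of the tissue moved in the comparisons with normal tissue. Among all genes tested, 5.35% were called lower and 9.24% higher in IR-3W, and 8.85% and 11.9% in IR-7W. Of 12 adipocyte markers, 10 were lower in IR-3W and 11 in IR-7W. Their median per array, each gene minus its mean over arrays, was 2.76 to 3.28 on normal arrays, -1.68 to 1.41 in IR-3W, where IR-3W 3 held the 1.41, and -1.55 to -0.35 in IR-7W. Of 10 endothelial markers, 2 and 6 were lower, with medians of 1.10 to 1.41 on normal arrays, -0.76 to 1.15 in IR-3W and -1.21 to 0.24 in IR-7W.

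Of 8 markers of plasma and B cells, which secrete antibody through the same machinery, 1 was lower in each comparison, with medians of 0.66 to 1.25 on normal arrays, -1.23 to 0.71 in IR-3W and -1.09 to 0.57 in IR-7W. Of 9 markers of exocrine pancreas, 4 and 5 were lower, and normal 1 stood apart with a median of 2.19 against 0.86 and 0.88 on the other normal arrays. Of 9 milk genes 0 were called, with 1 in each comparison at an unadjusted p under 0.05; IR-3W 3 had the highest median of any array (2.43). The median over the 30 ER genes, on the same scale, was 0.07 to 0.52 on normal arrays, -0.24 to 0.33 in IR-3W and -0.34 to 0.11 in IR-7W.

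Of 12 fibroblast markers, 5 were higher in IR-3W and 5 lower in IR-7W, with medians per array of -0.05 to 0.29 on normal arrays, 0.63 to 1.97 in IR-3W and -1.17 to 0.20 in IR-7W. The median difference of the fibroblast markers was 1.45 in IR-3W and -1.11 in IR-7W. P4hb and Ppib, which also serve collagen, were called lower only in IR-7W, as was Syvn1. Both were negative in IR-3W too (-0.49 and -0.30), and neither was called between the carcinoma groups (0.32 and 0.34). Of 12 macrophage markers, 1 was higher and 1 lower in IR-3W and 4 were lower in IR-7W, and of 8 myoepithelial markers 4 and 1 were lower. Of 12 markers of T and NK cells 0 were called, with 2 in each comparison at an unadjusted p under 0.05 and median differences of -0.91 and -0.96. Of 14 luminal epithelial markers 1 and 2 were higher, and of 9 proliferation genes 1 and 0 were higher. The part of these cells in the lower calls of Calr, Sel1l, Syvn1, P4hb and Ppib was not tested.

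**Figure D4:**
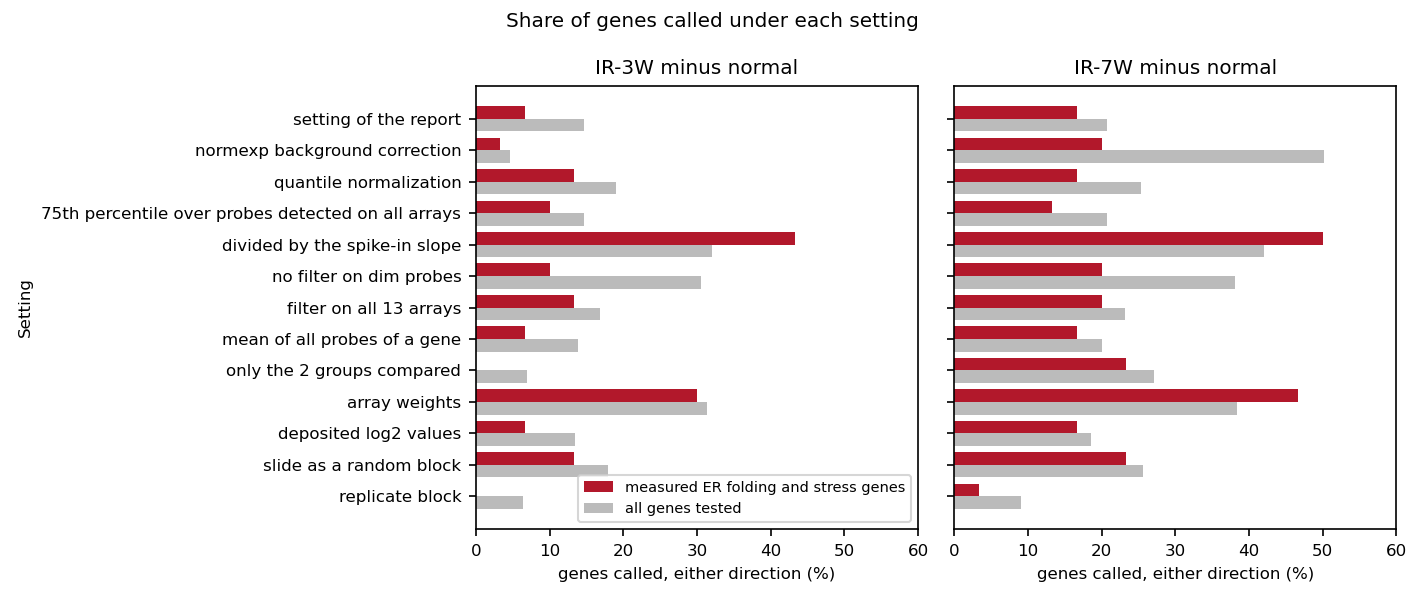
Percent of genes called in either direction (horizontal axis) under each setting (vertical axis), for the 30 measured genes (red) and all genes tested (grey), in the comparisons of IR-3W and IR-7W with normal tissue. The red bar is longer than the grey one only after division by the spike-in slope (both comparisons) and, in IR-7W, with array weights.

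The count of lower calls moved with how the arrays were scaled. Divided by each array's spike-in slope, 13 of the 30 genes were called lower in IR-3W and 15 in IR-7W, where 13.8% and 17.9% of all genes were called lower (32% and 42.1% either way), and Hspa5 was then lower by 1.28 (limma adjusted p = 0.00503) and 1.82 (adjusted p = 0.000213). By its construction this division widens the distance from the 75th percentile most on the normal arrays, whose slopes were lowest, so that genes above that percentile move down relative to normal tissue. With normexp background correction 1 of the 30 genes was called lower in IR-3W, where 1.58% of all genes were. In IR-7W 3 were called higher (Atf4, Canx and Pdia3) and 3 lower (Calr, Sel1l and Syvn1). Among all genes there 8.1% were called higher and 42.1% lower, and their median was -0.55. Which scaling is nearer to the RNA content of the tissues was not tested.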

How the data were processed

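RNA of 13 tissue samples was measured on Agilent rat arrays of 1 colour (Cy3, per the labels). Per the file headers, the authors' deposited files hold, for every spot, a linear intensity from Agilent Feature Extraction 10.7.3.1, the green signal after background subtraction. Deposited log2 values of the authors served as an alternative: after removal of a constant per array of at most 0.0335, 99.4 to 99.6% of them lay within 0.01 of the log2 signal scaled here minus the normal arrays' mean. Blank entries made up 29.4 to 52.2% of each column, columns had medians of -0.20 to 0.05, and no source used here states its scale, centring and direction, which were set by this comparison.

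Of 45018 spots, 1639 controls and the spots the scanner software called outliers were left out. The log2 signal minus the 75th percentile of the array was averaged over the spots of a probe. Probes well above background on at least 3 arrays were kept (29307 of 41012), and of several probes the brightest on average stood for the gene. Symbols came from RefSeq accessions without versions (assembly GRCr8; 16815 probes matched, 24197 not). The array design names an older genome build, so positions are given only for RefSeq promoters, 1-based in GRCr8.

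All arrays entered a single fit in limma 3.58.1 (lmFit, eBayes; R 4.3.3, data.table version 1.17.8) with 2-sided p-values adjusted by Benjamini-Hochberg, and 95% intervals from the same fit. Groups and replicate numbers came from the sample titles. The fit was tested on simulated data. The number of arrays limits the precision. Alternatives were the background correction, normalization, filter, choice of probe, arrays in the fit, array weights, slide and replicate block, and leaving out each array. The files hold no mean signal, so normexp (offset 50) used the median signal in its place. The members and lists were chosen with earlier results of these data known. All 36 genes could be named. Of other lists, up to 4 genes with the smallest p per comparison among those called could be named, or up to 2 where none was. The text names part of these, and Epcam and Krt18 outside this rule. The hypoxia list and the settings for single pathway genes were added after seeing the data.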

Additional observations from a re-analysis of the deposited data

Results flagged for a closer look

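In 60 groups of 4 to 6 arrays (30 genes in each carcinoma group), a highest or lowest array was set apart by a gap large against the range of its group in 4 cases, a rule that chance alone meets in about 1 group in 20. Of these, 3 concerned IR-3W 3. Pdia3, the isomerase that works with the lectin chaperones, had a level of 1.81 on IR-3W 3, below the 3.42 to 3.52 of the other IR-3W arrays. Sec61b, a subunit of the translocation channel, had 5.87 there, above the other arrays at 4.50 to 4.70. The ubiquitin ligase Syvn1 had 4.35 there, against 2.80 to 2.88 on the others and 3.90 to 4.39 on the normal arrays. In IR-7W, the transcription factor Atf4 had a level of 6.15 on IR-7W 2, above the 5.37 to 5.66 of the other arrays. IR-3W 3 was also the array with the highest medians of adipocyte markers (1.41) and milk genes (2.43) among the carcinoma arrays.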

How the results depend on the processing

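The number of the 30 genes called was 2 in IR-3W against normal tissue, all lower. It was 1 with normexp, 4 with quantile normalization (1 higher, Ssr3), 4 with a filter on all 13 arrays (1 higher, Ssr3), 13 divided by the spike-in slope, 9 with array weights (1 higher, Ssr3), 4 with slide as a random block (1 higher, Ssr3) and 0 in a fit of only the compared groups; leaving out an array gave 1 to 4. With the percentile over probes detected on all arrays, and with no filter, it was 3 (1 higher, Ssr3). Shares of all genes called either way were 14.6% with the settings used above, 4.65% with normexp and 19% with quantile normalization. They were 32% divided by the slope, 31.3% with array weights, 17.9% with the random block and 6.87% with only the compared groups. The filter on all arrays gave 16.9%, no filter 30.6%, the percentile over detected probes 14.7% and leaving out an array 8.28 to 19.7%. In IR-7W 20.8% of all genes were called, 42.1% divided by the slope, 38.4% with array weights and 50.2% with normexp. Leaving out an array gave 12 to 19%. The number of the 30 genes called there was 5, 15 divided by the slope and 14 with array weights. It was 2 (without normal 2) to 6 with an array left out. Normexp gave 6 (3 higher). Between the carcinoma groups it was 0 throughout, and 0 genes in all were called with slide as a fixed block or on slide 2 alone, the only slide that held both groups (median over the 30 genes of 0.18). The 0 for the carcinoma groups and the IR-7W calls of Calr and Sel1l held in all of these runs.

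Normexp moved the median of all genes to -0.21 in IR-3W and -0.55 in IR-7W, and relative to it the median of the 30 genes was 0.09 and 0.37; the spike-in slope moved it to 0.18 and 0.24, with relative medians of -0.91 and -1.25; the percentile over detected probes moved it to 0.10 and 0.13, with relative medians of -0.26 and -0.44. With no filter on dim probes the medians of all genes were -0.39 and -0.41 and the relative medians 0.12 and -0.06. The direction of the list against all genes therefore turned with normexp and, in IR-3W, with no filter, which by construction brings in more genes; the cause was not tested. Relative to all genes, IR-3W minus IR-7W was -0.39 with normexp. Stt3b, an oligosaccharyltransferase gene called lower in IR-7W (-0.93), had 0.55 (limma adjusted p = 0.547) as the mean of its probes, which by construction brings in another probe.

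Replicate numbers are shared by the groups, but same-numbered arrays did not deviate together (correlations of -0.21 to 0.08 over 10 pairs, 0 of them over 0.1), so the numbers do not pair the samples. With the replicate number as a block, 0 of the 30 genes were called in IR-3W, 1 (Calr) in IR-7W and 0 between the carcinoma groups. Sel1l had a limma adjusted p of 0.0729 in IR-7W. Of all genes 6.34%, 9.05% and 0% were called in the same order. Normal arrays had 48.7 to 54.2% of spots well above background and carcinoma arrays 58.0 to 71.0%, which limits dim genes most in normal tissue.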
